A study of Pseudotaxus chienii with 9 samples.

Results

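Leaves of the yew relative Pseudotaxus chienii, a conifer, were compared after 2 days of methyl jasmonate (MeJA) with leaves of the CK group, across every gene of the deposited table. The comparison used 6 of the 9 messenger RNA libraries of the series, namely the 3 labelled MeJA for 2 days and the 3 labelled CK, picked by treatment label alone. The remaining 3 libraries, labelled MeJA for 1 day, entered the fit to share its estimate of spread and served for a test between the days. All groups were leaf tissue of the same species, and no strain, genotype, plant age, MeJA dose or way of application is given. The label CK names no agent, and whether CK leaves were mock treated, or cut on the same day, is not stated. The table held 26827 genes, of which 22384 had enough reads to be tested, and the 6 libraries held 48893949 to 58703021 estimated counts each. Nothing in the labels ties a library to its own plant, so p-values describe the spread between libraries, part of which could be technical.

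Jasmonates are fatty acid derived hormones of wounding and defence. In angiosperms such as Arabidopsis, where the pathway is best known, the hormone triggers the breakdown of JAZ (TIFY) repressor proteins. That frees MYC2 and related transcription factors, which switch on defence and secondary metabolism and hold back growth and photosynthesis genes. In yews, MeJA is widely used in cell culture to raise the output of taxanes, the diterpenoids that include paclitaxel. Taxanes are built from geranylgeranyl diphosphate, which taxadiene synthase folds into the ring skeleton, and cytochromes P450 and acyltransferases then decorate that skeleton.

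After 2 days of MeJA far more genes were higher than lower. By edgeR's quasi-likelihood test at an adjusted p under 0.05, 915 genes rose (4.09% of those tested) and 192 fell (0.858%). The genes that rose had a median log2 fold change of 2.79 and those that fell one of -1.48. Of the 915, 410 rose by at least 3 on the log2 scale, and 24 of the 192 fell by as much. Among the called genes 31 of the higher ones had no count in any CK library and 7 of the lower ones had none in any day 2 library. Across all tested genes the median log2 fold change was 0.03. Every one of the 1107 called genes had FPKM values (fragments scaled by gene length and library size) in the day 2 libraries that did not overlap those in CK. Such separation was common, since 18.1% of tested genes were separated upward and 23.7% downward in FPKM, which carries no correction for library composition.

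**Figure D1:**
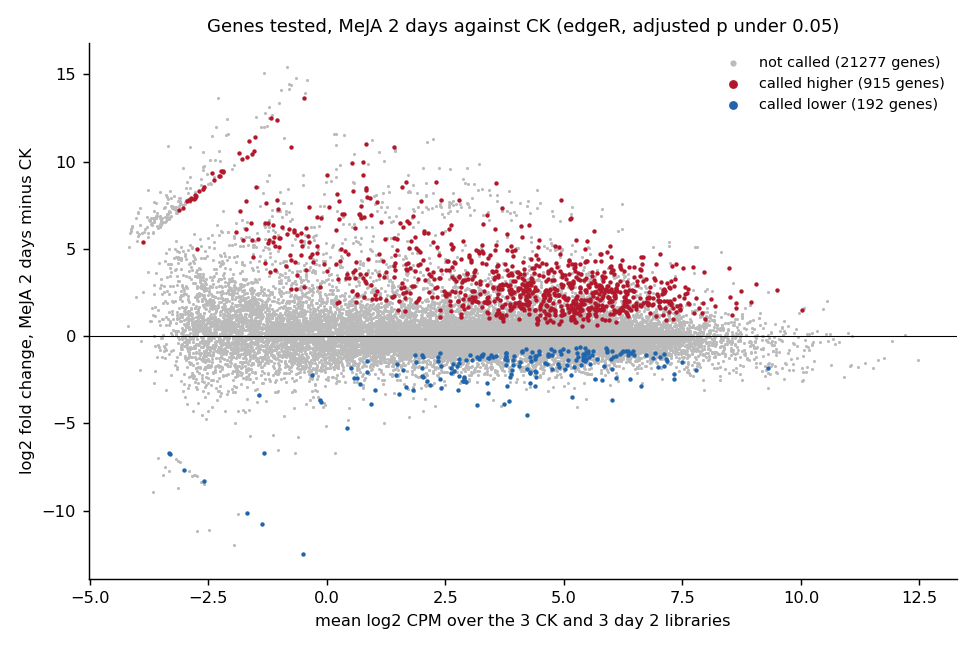
Each point is 1 of the 22384 genes tested, placed by its mean log2 CPM over the 6 libraries (counts scaled by library size, horizontal) and its log2 fold change at day 2 against CK (vertical). The 915 genes called higher (red) spread up to large fold changes while the 192 called lower (blue) lie closer to 0, and grey points were not called.

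The number of calls depended on the libraries in the fit, and it fell furthest without CK library 1. Without CK library 1 only 42 genes were called higher and 6 lower, without CK library 2 the counts were 351 and 21, and without CK library 3 they were 186 and 18. Leaving out day 2 library 1, 2 or 3 gave 587 and 78, 401 and 31, or 433 and 66. The day 1 libraries, which are in the fit but not in the contrast, moved the counts too, to 660 and 139 without day 1 library 1, 1981 and 912 without library 2, 668 and 122 without library 3, and 1402 and 543 without all 3. Leaving them out also changed how many genes passed the filter, from 22384 to between 21793 and 22899. Day 1 library 2 stood apart, with correlations of 0.735 to 0.839 with the other 8 libraries across genes. A set of 41 genes, 37 higher and 4 lower, was called in the full fit and in all 6 fits without a CK or day 2 library, and 169 (157 higher and 12 lower) when the fit without CK library 1 was set aside. Some calls ended only narrowly there. MYC2a and several other genes named below shared an edgeR adjusted p of 0.0504 without CK library 1, while a jacalin-related lectin (PchiChr1G000340) was at 0.174. The log2 fold change of MYC2a ran from 2.38 to 2.87 over the 6 fits. The choice of tool mattered as well, with 2572 genes higher and 1360 lower by DESeq2. The share of called genes that were higher was 82.7% by edgeR, 65.4% by DESeq2 and 68.9% by limma on log2(FPKM + 1), which shifted the median of all genes to -0.11. Beside the genes named below stands the number of these 6 fits in which the call held.

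**Figure D2:**
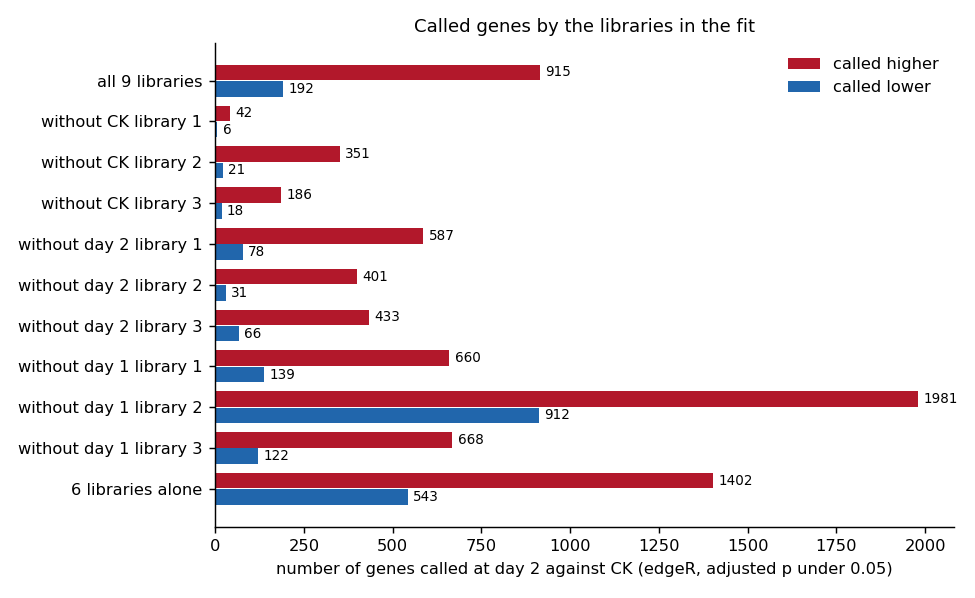
Bars give the number of genes called higher (red) and lower (blue) at day 2 against CK by edgeR, for the fit of all 9 libraries, for fits without 1 library each, and for the 6 libraries alone. The full fit called 915 and 192 genes, and the fit without CK library 1 called 42 and 6.

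The day 2 libraries were less alike than the CK libraries, and library 2 was the highest of its group for most taxane genes in both CK and day 2. On the first principal component of the 6 libraries, which held 62.0% of the variance, CK lay between -147 and -74.6, with library 2 nearest to the treated side. Day 2 libraries 1, 2 and 3 lay at 79.1, 178 and 91.0. Day 2 library 2 therefore lay farthest from CK. Chi-square per degree of freedom between libraries was 105 to 135 among CK pairs and 363 to 844 among day 2 pairs, which checks only that no 2 libraries are the same one.

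The taxane genes had the highest median fold change of the gene lists, and few of them passed the test. Of 61 genes named for taxane enzymes, 54 were tested, 53 had a positive estimate and 3 rose (5.56% called, against 4.95% of all tested genes). The list's median log2 fold change was 7.44, against 0.03 for all tested genes. Their summed level was 33.8, 275 and 34.9 FPKM in CK libraries 1, 2 and 3 and 1644, 29730 and 7872 FPKM in day 2 libraries 1, 2 and 3. The lowest day 2 library thus lay above the highest CK library, and the libraries spanned a wide range on both sides. In day 2 library 2 these genes made up 5.88% of the whole FPKM sum, in day 2 libraries 1 and 3 0.307% and 1.47%, and in CK between 0.00646% and 0.0517%. Day 2 library 2 was the highest of its group for 53 of the 54 tested genes in FPKM, against 25.7% of all tested genes. CK library 2 was the highest of its group for 52 of them, and 37 had no count in CK libraries 1 and 3. The list's median was 16.4 without CK library 2, a size set largely by genes at 0, and 5.85 to 7.93 without any other single library. In a bulk leaf library, more cells that make taxanes and more of these transcripts per cell cannot be told apart.

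Taxadiene synthase makes the taxane skeleton, and 5 copies were in the table. Summed over the copies it stood at 0, 42.2 and 0 FPKM in CK libraries 1, 2 and 3 and at 275, 5568 and 1210 FPKM in day 2 libraries 1, 2 and 3. The copy PchiChr11G299870 (chromosome 11, block 1, 77705632 to 77719752) was at 0, 22.3 and 0 FPKM in CK and at 127, 1758 and 643 FPKM at day 2. The groups did not overlap, but the gene did not pass, and its estimate was 7.02 on the log2 scale (SE 3.24, adjusted p = 0.222 by edgeR). It was chosen for its values, as were the other genes named below without a call except HMG-CoA reductase, and the respiratory burst oxidase, glucose-6-phosphate translocator and phytosulfokine genes. Copies of a gene can share reads, so the sums are safer than the single values.

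The hydroxylases that act on the skeleton showed the same order of libraries. Taxadiene 5-alpha-hydroxylase, the first oxidation step, was at 0.112, 18.1 and 0.247 FPKM in CK and at 139, 3820 and 691 FPKM at day 2, as the sum of 5 copies. Taxane 13-alpha-hydroxylase, with 7 copies, went from 5.18, 71.0 and 5.16 FPKM to 366, 5602 and 1829 FPKM. The 10-beta-hydroxylase sum, over 2 copies, was 0.161, 4.43 and 0 FPKM against 39.6, 723 and 162 FPKM. In each of these sums the lowest day 2 value lay above the highest CK value, with day 2 library 2 on top. The 2-alpha-hydroxylase copies summed to 0.0360, 13.1 and 0.232 FPKM in CK and 73.6, 1620 and 447 FPKM at day 2. The 7-beta-hydroxylase sum was 16.6, 39.8 and 17.5 FPKM in CK, against 148, 2595 and 821 FPKM at day 2. None of these 20 hydroxylase copies passed. A 10-beta-hydroxylase copy (PchiChr11G298550) had a log2 of 8.09 (SE 2.32, edgeR adjusted p = 0.0858) and a 5-alpha-hydroxylase copy (PchiChr11G299400) one of 7.39 (SE 2.14, edgeR adjusted p = 0.0879).

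Acyltransferases supplied the 3 taxane genes that rose. 10-Deacetylbaccatin III 10-O-acetyltransferase (DBAT, PchiChr11G300670, chromosome 11, block 1, 97823384 to 97824981), which forms baccatin III, was at 0.374, 0.392 and 0.386 FPKM in CK and at 6.46, 36.8 and 19.5 FPKM at day 2. Its CK libraries were nearly equal, and all day 2 libraries lay above them (log2 5.92, SE 0.89, edgeR adjusted p = 0.0144). A taxadienol acetyltransferase (PchiChr9G253100, chromosome 9, block 1, 145986522 to 145991178), which acylates the product of the first hydroxylase, was at 0.305, 4.55 and 0.662 FPKM in CK and at 52.4, 760 and 246 FPKM at day 2 (log2 7.78, SE 1.65, edgeR adjusted p = 0.0386). In these libraries too the groups were apart. The enzyme that completes the paclitaxel side chain, 3'-N-debenzoyltaxol N-benzoyltransferase (PchiChr4G123700), was at 10.3, 7.21 and 9.82 FPKM in CK and at 30.9, 87.5 and 53.4 FPKM at day 2 (log2 2.82, SE 0.62, edgeR adjusted p = 0.0419). The call of PchiChr11G300670 held in 3 of the 6 fits with a library left out and the other calls in 1 each, and without any one CK library none of the 3 held (edgeR adjusted p of up to 0.152). The 14 genes named for 2-O-benzoyltransferases, which add the benzoyl group of the core, summed to 0.0640, 7.61 and 0 FPKM in CK and to 74.8, 2828 and 478 FPKM at day 2, and none of the 10 tested was called. Phenylalanine aminomutase (PchiChr5G152450), which makes the beta-phenylalanine of the side chain, was at 0.0266, 15.1 and 0.0570 FPKM in CK and at 59.4, 1459 and 349 FPKM at day 2. It followed the same order of libraries and did not pass (log2 7.16, SE 3.03, edgeR adjusted p = 0.192).

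CYP725A is the P450 family that includes the known taxane hydroxylases. Of 34 genes tested (48 in the table), 13 rose and none fell (38.2% called, against 4.95% of all tested genes). The median log2 fold change was 6.998. A CYP725A21 gene (PchiChr11G299460, chromosome 11, block 1, 59948349 to 59950594) was at 5.90, 7.41 and 6.06 FPKM in CK and at 167, 139 and 43.3 FPKM at day 2 (log2 4.30, SE 0.70, edgeR adjusted p = 0.0184, held in 3 of 6 fits). Here day 2 library 1 was the highest, unlike in the taxane genes above. A CYP725A9 gene (PchiChr11G315740) was at 0.863, 1.02 and 1.43 FPKM in CK and at 8.91, 5.61 and 6.22 FPKM at day 2 (log2 2.74, SE 0.38, edgeR adjusted p = 0.0110). Its call held in 5 of 6 fits and ended without CK library 1. A CYP725A13 gene (PchiChr9G256640) was at 0.386, 0.975 and 0.347 FPKM in CK and at 16.9, 115 and 51.8 FPKM at day 2 (log2 6.92, SE 1.08, edgeR adjusted p = 0.0163). Another CYP725A13 gene on the same chromosome, PchiChr9G256610, had no CK count. Taking 3 counts over the CK group as the limit, its day 2 level was at least 638-fold higher. The calls of these CYP725A13 genes held in 4 and 1 of 6 fits. Over the list, none of the 13 calls held without CK library 1, 2 held without CK library 2 and 1 without CK library 3. Without day 2 libraries 1, 2 and 3, 8, 4 and 7 held.

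**Figure D3:**
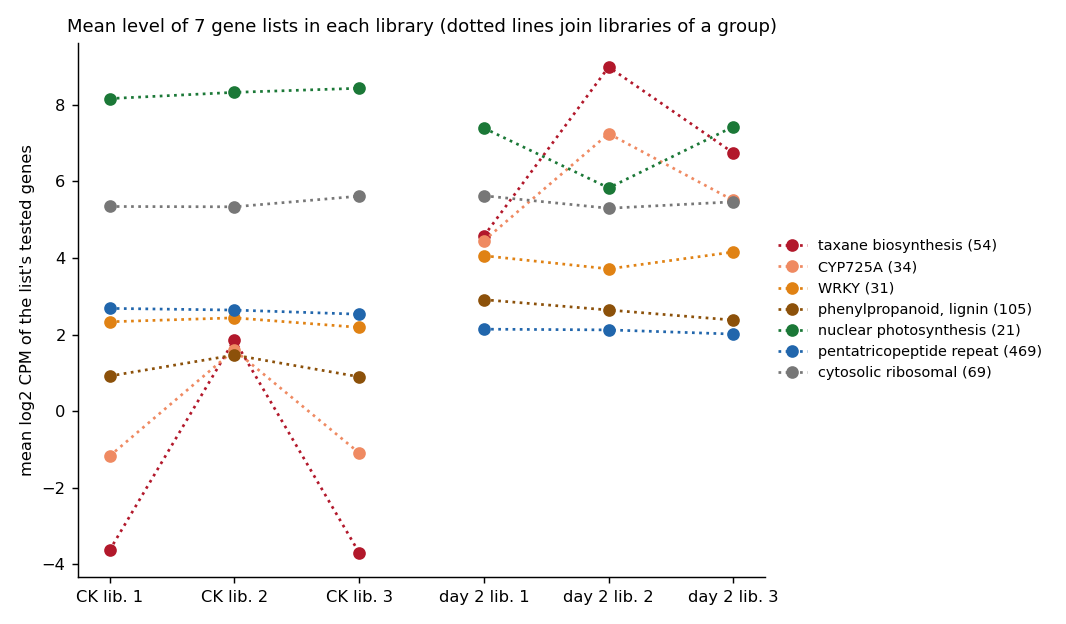
Points give the mean log2 CPM of a list's tested genes in each of the 3 CK and 3 day 2 libraries, and dotted lines only join the libraries of a group. The taxane list runs from -3.63 and -3.69 in CK libraries 1 and 3 and 1.87 in CK library 2 to 8.99 in day 2 library 2, where the nuclear photosynthesis list has its lowest value of 5.83.

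Among genes for precursor supply, transcripts of 2 steps of the plastid route were called higher. The MEP pathway makes the C5 units of diterpenoids in plastids, and its first enzyme, 1-deoxy-D-xylulose-5-phosphate synthase (PchiChr10G274180), was at 25.8, 34.2 and 34.4 FPKM in CK and at 134, 881 and 237 FPKM at day 2 (log2 3.93, SE 0.80, edgeR adjusted p = 0.0347). It was the 1 of 16 MEP genes that rose (6.25% called, near the 4.95% of all tested genes). The pathway's last enzymes, PchiChr10G276820 (HDS) and PchiChr2G062450 (HDR), were at 115 to 130 and 372 to 404 FPKM in CK, and in day 2 libraries 1, 2 and 3 at 147, 1248 and 458 and at 405, 2575 and 1137 FPKM. Day 2 library 1 lay close to CK for both, and neither passed (edgeR adjusted p = 0.101 and 0.132). Geranylgeranyl diphosphate synthase joins the units into the taxane precursor. Of 10 prenyl diphosphate synthases tested 2 rose, both copies of this enzyme. They are neighbours on chromosome 9 and may share reads. PchiChr9G269010 was at 4.90, 10.1 and 4.85 FPKM in CK and at 41.4, 424 and 149 FPKM at day 2 (log2 5.15, SE 0.94, edgeR adjusted p = 0.0245), and PchiChr9G269020 followed at a log2 of 4.83 (SE 0.80, edgeR adjusted p = 0.0189). Both calls held in 3 of 6 fits, and that of PchiChr10G274180 in 2 of 6, ending without any one CK library. None of 7 genes of the cytosolic mevalonate pathway passed, and HMG-CoA reductase (PchiChr10G292440), its committed step, was at 10.6 to 12.9 FPKM in CK and 18.7 to 55.8 FPKM at day 2 (edgeR adjusted p = 0.0812).

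A neighbouring pair of genes with names from resin diterpene synthesis rose. A pimara-8(14),15-diene synthase (PchiChr8G235880), named for a resin diterpene enzyme, was at 16.6, 9.63 and 12.4 FPKM in CK and at 49.3, 102 and 41.4 FPKM at day 2 (log2 2.49, SE 0.54, edgeR adjusted p = 0.0416). The adjacent gene in the table, CYP720B2 (PchiChr8G235890), of a P450 family that oxidises resin acids in conifers, was at 12.2, 10.2 and 13.8 FPKM in CK and at 70.2, 156 and 66.6 FPKM at day 2 (log2 3.18, SE 0.57, edgeR adjusted p = 0.0233). The groups were apart for both genes, which lie on chromosome 8 (block 499953709, 283813085 to 283852061) and were picked once values were known. The first call held in none of the 6 fits and the second in 3. None of the 22 genes named for other terpene synthases passed. Limonene/borneol synthase (PchiChr4G105940) was at 0, 82.3 and 0.687 FPKM in CK and 204, 3248 and 1687 FPKM at day 2 (edgeR adjusted p = 0.301), and a sesquiterpene synthase (PchiChr5G131060) at 41.4, 236 and 20.2 against 1683, 23.7 and 99.9 FPKM. The latter was high in day 2 library 1 alone, its groups overlapped, and its direction turned without that library.

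Of 10 jasmonate signalling genes 3 rose, none fell and 6 had a positive estimate, with 5 separated upward in FPKM and 3 downward. Of all tested genes 4.95% were called, 18.1% were separated upward and 23.7% downward. MYC2a (PchiChr2G047860, chromosome 2, block 1, 445536507 to 445539843) was at 7.26, 9.90 and 5.20 FPKM in CK and at 40.1, 41.1 and 40.5 FPKM at day 2. The 3 day 2 libraries were nearly equal, and the gene rose by 2.57 on the log2 scale (SE 0.28, edgeR adjusted p = 0.00758), a call that held in 5 of 6 fits and ended without CK library 1 (0.0504). Repressors rose too. TIFY 9 (PchiChr3G086840) was at 7.67, 9.28 and 1.87 FPKM in CK and at 148, 626 and 303 FPKM at day 2 (log2 6.03, SE 1.15, edgeR adjusted p = 0.0281), and a group V JAZ gene (PchiChr12G333780) at 55.7 to 59.5 against 109 to 156 FPKM (log2 1.39, SE 0.26, edgeR adjusted p = 0.0277). These calls held in 1 of 6 fits each, and they were the 3 of 10 signalling genes called.

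Of 10 jasmonate biosynthesis genes 1 rose, and none of 16 turnover genes did. 12-Oxophytodienoate reductase 7 (PchiChr7G216060), which acts on the plastid-made precursor in peroxisomes, had no count in CK and was at 0.814, 1.98 and 0.432 FPKM at day 2 (edgeR adjusted p = 0.0419). Against 3 counts over CK this was at least 80.7-fold higher. That call held in none of the 6 fits, and the level stayed low. A lipoxygenase 2 (PchiChr4G104000), of the family that starts jasmonate synthesis, was at 3.73, 8.19 and 1.60 FPKM in CK and at 99.1, 626 and 27.9 FPKM at day 2, and did not pass (log2 6.03, SE 1.62, edgeR adjusted p = 0.0739). Among turnover genes CYP94D82 (PchiChr7G203650), from the CYP94 group of P450s, some of which inactivate jasmonates in Arabidopsis, fell from 83.8 to 91.0 FPKM in CK to 22.4 to 40.3 FPKM (log2 -1.30, SE 0.28, edgeR adjusted p = 0.0412). The call held in none of the 6 fits.

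Transcription factors were counted by family, and differences between families were not tested. The called shares were 29.0% for WRKY, 15.3% for MYB and 19.2% for bHLH factors, against 4.95% of all tested genes. WRKY factors, regulators of defence, had 9 of 31 higher and none lower, with a median log2 of 1.65. WRKY 41 (PchiChr10G284800) was at 4.39, 11.2 and 3.76 FPKM in CK and at 145, 93.6 and 185 FPKM at day 2 (log2 4.55, SE 0.56, edgeR adjusted p = 0.00961). Day 2 library 2 was the lowest of its group here and for 18 of the 31 genes in FPKM, as for 51.6% of all tested genes. The call held in 5 of 6 fits. Among MYB factors 11 of 72 rose and none fell. R2R3MYB8 (PchiChr5G142790) was at 8.78, 11.6 and 6.08 FPKM in CK and at 93.1, 88.8 and 96.6 FPKM at day 2 (log2 3.52, SE 0.33, edgeR adjusted p = 0.00552), a call that held in all 6 fits. Its treated values were tightly grouped, and R2R3MYB20 (PchiChr10G295880) behaved alike at 32.7 to 43.2 against 184 to 215 FPKM (log2 2.48, SE 0.31, edgeR adjusted p = 0.00968). Of 26 bHLH factors 5 rose, with bHLH041 (PchiChr2G064150) at 1.00 to 1.53 against 9.84 to 10.3 FPKM (log2 3.10, SE 0.32, edgeR adjusted p = 0.00732), while bHLH66 (PchiChr7G203480) stood at 2.81 to 5.06 against 17.0 to 36.1 FPKM (log2 2.95, SE 0.38, edgeR adjusted p = 0.00973). The bHLH041 call held in all 6 fits, and those of bHLH66 and R2R3MYB20 in 5. Without CK library 1 none of the 9 WRKY calls held, 1 of the 11 MYB calls and 1 of the 5 bHLH calls. The edgeR adjusted p in that fit was 0.0513 for WRKY 41 and 0.0504 for R2R3MYB20 and bHLH66, just above the threshold.

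Ethylene-type factors rose in part. Of 62 AP2/ERF genes 10 rose and 1 fell (17.7% called). ERF12 (PchiChr11G316130) was at 41.0, 61.7 and 22.8 FPKM in CK and at 208, 212 and 273 FPKM at day 2 (log2 2.59, SE 0.43, edgeR adjusted p = 0.0188). The member that fell, an AP2/B3-like factor (PchiChr12G329690), was at 9.76 to 11.7 FPKM in CK and at 1.40 to 2.59 FPKM at day 2 (log2 -2.28, SE 0.39, edgeR adjusted p = 0.0206). Both calls held in 2 of 6 fits. Of 27 NAC factors 1 rose (3.7% called, against 4.95% of all tested genes). This gene, NAC 1 (PchiChr12G334770), rose from 3.31 to 3.60 FPKM to 11.3 to 20.7 FPKM (log2 2.44, SE 0.50, edgeR adjusted p = 0.0351, held in 1 of 6 fits). No gene of the ethylene and abscisic acid list passed among 16 tested. Its ACC oxidase 5 (PchiChr8G225290), which makes ethylene, was at 6.83 to 9.95 FPKM in CK and at 131, 149 and 75.0 FPKM at day 2 (log2 3.97, SE 1.38, edgeR adjusted p = 0.133). An ethylene-forming enzyme outside that list (PchiChr8G230600) rose from at most 0.0825 FPKM to 9.73, 24.3 and 7.98 FPKM (log2 8.12, SE 1.06, edgeR adjusted p = 0.00999), and its call held in 5 of 6 fits, ending without CK library 3 (0.0508).

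Phenolic and oxidative enzymes held some of the steadiest calls. Flavonol synthase (PchiChr11G311480, chromosome 11, block 500000001, 317118923 to 317120628) was at 1.19, 1.66 and 0.791 FPKM in CK and at 20.2, 19.96 and 22.8 FPKM at day 2 (log2 4.23, SE 0.31, edgeR adjusted p = 0.0037). Leucoanthocyanidin reductase (PchiChr6G169620), of the branch to catechins, went the other way, from 2.80, 2.67 and 9.30 FPKM to 0.877, 0.318 and 0.410 FPKM (log2 -3.10, SE 0.66, edgeR adjusted p = 0.0381). The flavonol synthase call held in all 6 fits and the reductase call in none. They were the 2 called of 24 flavonoid genes (8.33%, against 4.95% of all tested genes). Class III peroxidases, secreted enzymes that use hydrogen peroxide in the wall, had 8 of 41 higher and none lower (19.5% called). Peroxidase 51 (PchiChr8G221830) was at 1.55 to 2.09 FPKM in CK and at 14.4, 18.6 and 13.9 FPKM at day 2 (log2 3.28, SE 0.26, edgeR adjusted p = 0.0037), and PchiChr5G147320 at 2.94 to 4.45 against 46.3, 36.9 and 38.6 FPKM (log2 3.54, SE 0.32, edgeR adjusted p = 0.00503). Both held in all 6 fits, while none of the other 6 peroxidase calls held without CK library 1.

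**Figure D4:**
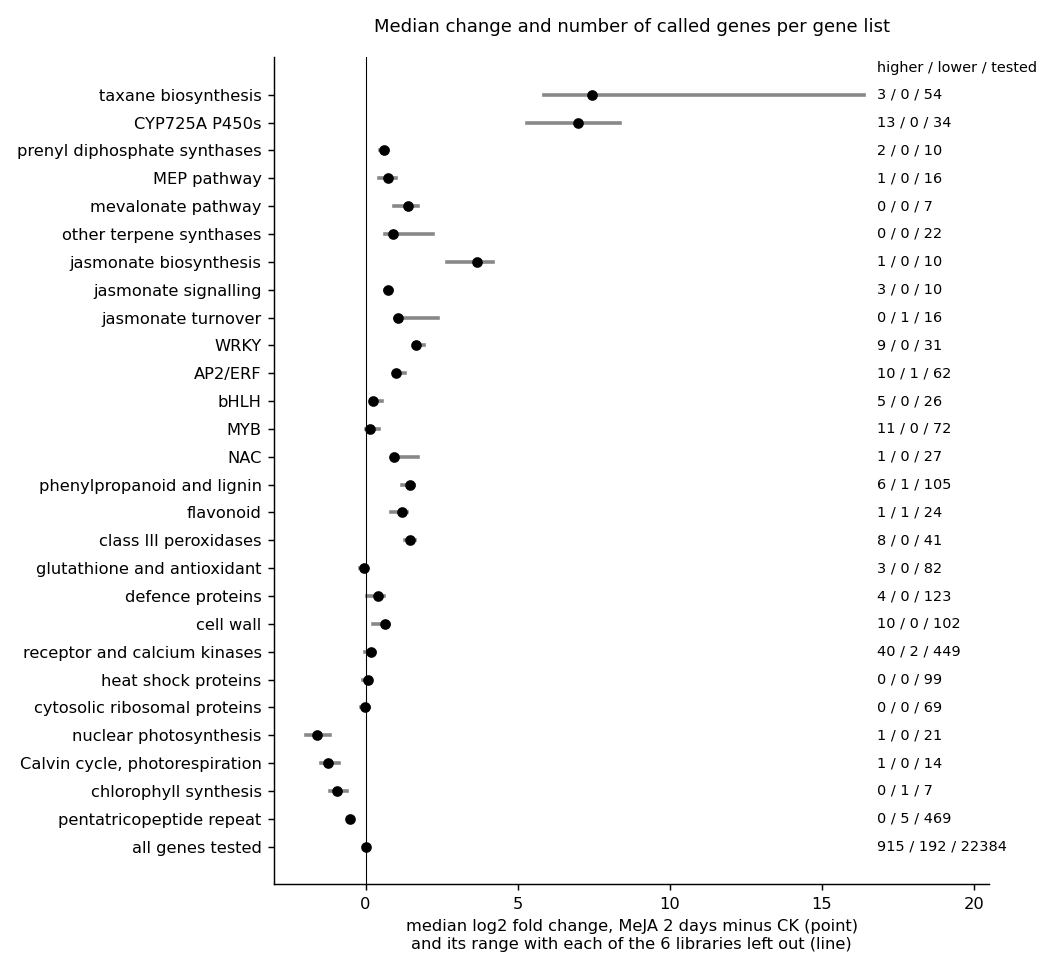
Points give the median log2 fold change of each gene list at day 2 against CK and grey lines its range over 6 fits that each left out 1 CK or day 2 library, with the numbers called higher, called lower and tested at the right. The taxane list has a median of 7.44 with 3 of 54 genes called and CYP725A one of 6.998 with 13 of 34 called, while the list of all genes tested sits at 0.03.

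Lignin and other phenylpropanoid genes gave 6 higher and 1 lower of 105 tested, with a median log2 of 1.47. That was 6.67% called, near the 4.95% of all tested genes. Of those 6, 5 were dirigent proteins, which guide the coupling of lignan precursors. PchiChr2G041200 was at 51.4, 63.7 and 29.1 FPKM in CK and at 442, 378 and 496 FPKM at day 2 (log2 3.31, SE 0.38, edgeR adjusted p = 0.00912), and its call held in 5 of 6 fits, ending without CK library 1 (0.0504). A caffeic acid O-methyltransferase (PchiChr7G199300) was at 12.8, 33.6 and 13.4 FPKM in CK and 112, 1278 and 469 FPKM at day 2. It showed the order of libraries of the taxane genes and did not pass (log2 5.16, SE 1.44, edgeR adjusted p = 0.0809). Glutathione S-transferases, which conjugate reactive compounds, made up the 3 of 82 antioxidant genes that rose (3.66% called, below the share of all tested genes). PchiChr5G128190 was at 17.7, 22.8 and 30.97 FPKM in CK and at 212, 247 and 131 FPKM at day 2 (log2 3.18, SE 0.39, edgeR adjusted p = 0.00961). A respiratory burst oxidase (PchiChr3G092470), which makes superoxide at the cell surface, rose from 13.6 to 16.3 FPKM to 49.8 to 59.6 FPKM (log2 2.00, SE 0.22, edgeR adjusted p = 0.00768). These calls also ended without CK library 1 and held in the other 5 fits.

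Of 449 receptor and calcium-dependent kinases 40 rose and 2 fell, 9.35% called, against 4.95% of all tested genes. A G-type lectin receptor kinase (PchiChr1G007020) was at 0.345, 0.362 and 0.157 FPKM in CK and at 8.46, 9.58 and 6.27 FPKM at day 2 (log2 4.93, SE 0.44, edgeR adjusted p = 0.00503, held in all 6 fits). Calcium-dependent protein kinase 10 (PchiChr2G047470) was at 19.9 to 23.6 against 57.9 to 95.7 FPKM (log2 1.93, SE 0.21, edgeR adjusted p = 0.00758, held in 5 of 6). Of 102 cell wall genes 10 rose and none fell (9.8% called). COBRA-like protein 10 (PchiChr3G071500), whose relatives guide cellulose orientation, was at 3.15, 6.12 and 1.67 FPKM in CK and at 78.4, 63.9 and 55.8 FPKM at day 2 (log2 4.30, SE 0.49, edgeR adjusted p = 0.00912). An extensin-like gene (PchiChr5G133080), a structural wall protein, was at 50.4 to 57.8 against 241 to 250.4 FPKM (log2 2.31, SE 0.27, edgeR adjusted p = 0.00912). The calls of these wall genes held in 5 of 6 fits. Leaving out CK library 1 left 4 of the 40 kinase calls and none of the 10 wall calls.

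Defence and transport lists had few calls. Of 123 genes named for defence proteins 4 rose (3.25% called, against 4.95% of all tested genes), namely 2 chitinases and 2 disease resistance genes, of which PchiChr1G019480 was at 1.30 to 2.30 against 8.78 to 14.9 FPKM (log2 2.78, SE 0.36, edgeR adjusted p = 0.00973). Of 87 ABC transporters 2 rose (2.3%). PchiChr12G335810 was at 5.98, 7.02 and 3.42 FPKM in CK and at 94.2, 192 and 97.7 FPKM at day 2 (log2 4.71, SE 0.72, edgeR adjusted p = 0.0151). A multidrug-type ABC transporter (PchiChr9G272390) was at 0.206, 0.649 and 0.0678 FPKM against 6.51, 90.9 and 32.5 FPKM (log2 7.34, SE 1.39, edgeR adjusted p = 0.0277), with the order of libraries seen in the taxane genes. A putative ammonium transporter (PchiChr10G283910) rose from 4.43 to 10.6 FPKM to 84.5 to 148 FPKM (log2 4.03, SE 0.53, edgeR adjusted p = 0.0100). A plastid glucose-6-phosphate translocator (PchiChr12G329540), which carries sugar phosphate into plastids, was at 5.30, 4.88 and 5.38 FPKM in CK and at 26.7, 19.9 and 20.6 FPKM at day 2 (log2 2.22, SE 0.17, edgeR adjusted p = 0.0037, held in all 6 fits). The calls of PchiChr12G335810 and PchiChr9G272390 held in 3 and 1 of 6 fits, and those of PchiChr1G019480 and PchiChr10G283910 in 5 each.

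**Figure D5:**
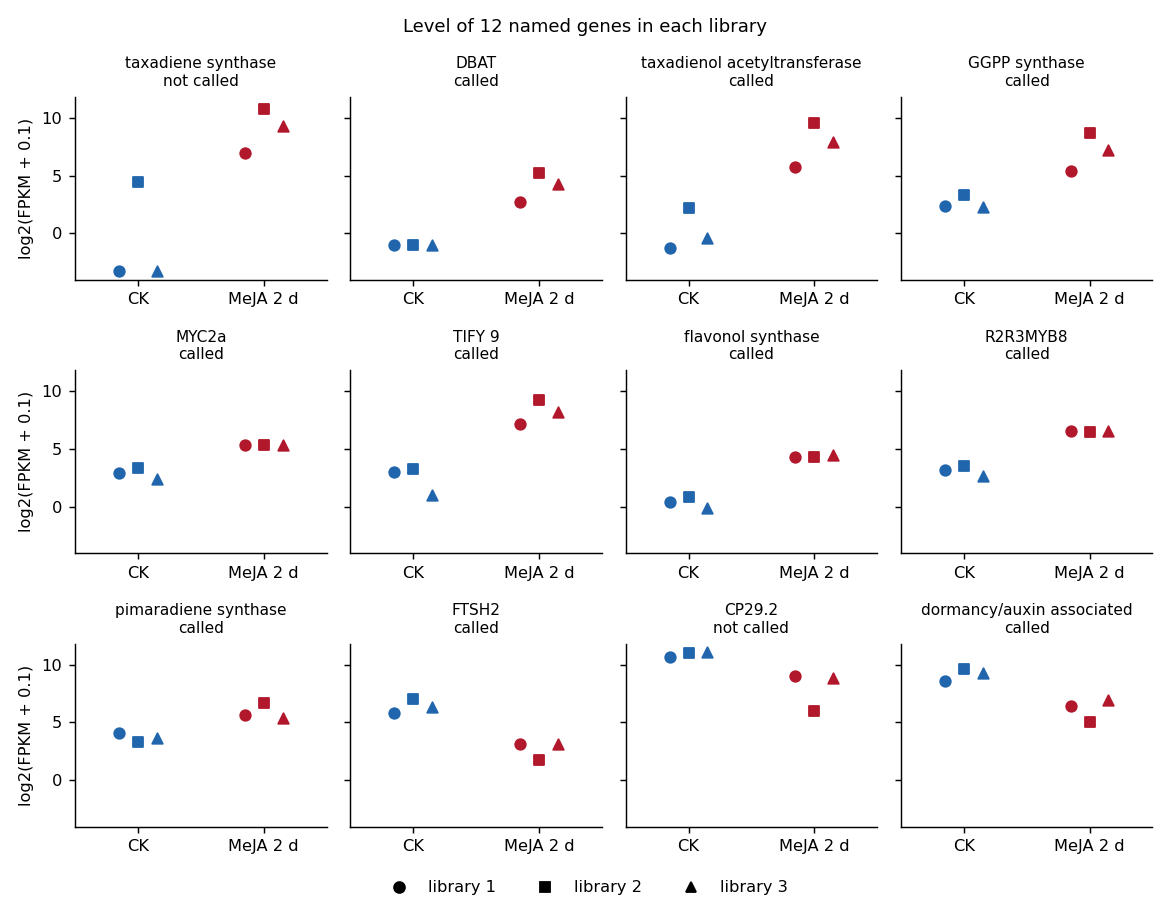
Each panel shows 1 gene, with log2(FPKM + 0.1) in CK libraries (blue) and day 2 libraries (red), where the marker shape gives the library number. MYC2a, flavonol synthase and R2R3MYB8 have nearly equal day 2 libraries, while taxadiene synthase (0, 22.3 and 0 FPKM in CK against 127, 1758 and 643 FPKM) and CP29.2 spread widely and were not called.

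Most nuclear genes named for the photosynthetic machinery had lower values at day 2, and hardly any passed. Of 21 nuclear photosynthesis genes tested 19 had a negative estimate and 17 had day 2 FPKM values below all CK values, against 23.7% of all tested genes, with a median log2 of -1.60. None was called lower. Their summed level was 13150, 15990 and 16270 FPKM in CK and 5670, 1277 and 5626 FPKM at day 2, so day 2 library 2 was again apart, here as the lowest. CK library 2 was not apart here. CP29.2 (PchiChr4G116790), an antenna protein of photosystem II, was at 1640, 2128 and 2248 FPKM in CK and at 535, 62.5 and 476 FPKM at day 2 (log2 -2.43, SE 0.98, edgeR adjusted p = 0.178). Plastocyanin (PchiChr5G142240), which carries electrons to photosystem I, was at 1599, 1530 and 1585 FPKM against 621, 83.9 and 712 FPKM (log2 -1.67, SE 0.83, edgeR adjusted p = 0.255). Rubisco activase (PchiChr11G319070), which keeps the carbon-fixing enzyme active, was at 4845, 4956 and 5469 FPKM against 2473, 535 and 2588 FPKM (log2 -1.38, SE 0.73, edgeR adjusted p = 0.280). In each of them the groups were apart, and without day 2 library 2 the list's median was -1.18. The 1 photosynthesis gene called was higher, a ferredoxin reductase of the embryo isozyme (PchiChr9G264020, 30.4 to 39.2 against 82.0 to 237 FPKM, log2 2.42, SE 0.47, edgeR adjusted p = 0.0304, held in 1 of 6 fits).

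Of 7 chlorophyll synthesis genes 1 fell, the magnesium chelatase subunit ChlD (PchiChr5G140700), which inserts magnesium into the pigment ring, from 26.0, 23.1 and 22.2 FPKM in CK to 9.45, 4.41 and 8.99 FPKM (log2 -1.55, SE 0.34, edgeR adjusted p = 0.0428). FTSH2 (PchiChr10G282200), a thylakoid protease that clears damaged photosystem II proteins, fell from 58.0, 132 and 82.4 FPKM to 8.52, 3.26 and 8.46 FPKM (log2 -3.67, SE 0.73, edgeR adjusted p = 0.0313). It was the 1 gene that fell among 47 proteases, of which 6 rose, and the median log2 of that list was 0.04. The called share was 14.9% for the proteases and 14.3% for the chlorophyll synthesis genes, against 4.95% of all tested genes. The calls of ChlD and FTSH2 held in none of the 6 fits. No gene of the chlorophyll breakdown and senescence list passed among 9 tested. Cytosolic ribosomal proteins, of which none of 69 passed, had a median log2 of -0.03, and for heat shock proteins none of 99 passed. At an unadjusted p under 0.05 edgeR called 3405 genes higher and 2121 lower over the whole table.

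The largest fold changes among genes with an informative name and a group mean of 5 FPKM or more were spread over several families. Besides CYP725A members these included a LOB domain factor (PchiChr12G328590, no count in CK and 1.86, 18.0 and 2.10 FPKM at day 2), and jacalin-related lectins (PchiChr1G000340, 0.0240, 0.0628 and 0 against 7.19, 160 and 2.32 FPKM, and its neighbour PchiChr1G000350), sugar-binding proteins of defence. A mitochondrial calcium uniporter (PchiChr8G237690) was at most at 0.105 FPKM in CK and at 3.61, 152 and 13.8 FPKM at day 2 (log2 9.96, SE 1.97, edgeR adjusted p = 0.0313). In these genes day 2 library 2 was far above the other treated libraries. An acyl-activating enzyme (PchiChr7G213780) was at 0.154 to 0.662 against 17.7, 318 and 83.2 FPKM (log2 8.77, SE 1.48, edgeR adjusted p = 0.0197), and bHLH62 (PchiChr5G154260) at 0 to 0.197 against 15.4, 45.1 and 19.7 FPKM (log2 7.97, SE 1.40, edgeR adjusted p = 0.0224). The calls of PchiChr12G328590 and PchiChr7G213780 held in 3 of 6 fits, of PchiChr8G237690, PchiChr5G154260 and PchiChr1G000350 in 2, and of PchiChr1G000340 in none.

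Falls among genes with an informative name and a group mean of 5 FPKM or more were smaller in size. Outside that limit 10 called genes fell by at least 4 on the log2 scale. Within it CYP750C17 (PchiChr1G001020), a P450, fell from 20.7, 55.1 and 39.7 FPKM to 4.14, 1.12 and 3.13 FPKM (log2 -3.71, SE 0.75, edgeR adjusted p = 0.0337), as did a dormancy/auxin associated gene (PchiChr3G076750), of a family linked to growth arrest, from 391, 810 and 624 FPKM to 85.0, 32.4 and 123 FPKM (log2 -2.85, SE 0.61, edgeR adjusted p = 0.0392). MIEL1 (PchiChr4G102480), a ubiquitin ligase that in Arabidopsis targets MYB factors, fell from 10.3, 9.85 and 15.3 FPKM to 2.26, 0.780 and 2.19 FPKM (log2 -2.68, SE 0.40, edgeR adjusted p = 0.0144). A formin-like gene (PchiChr10G278950), of actin assembly, fell from 106, 135 and 145 FPKM to 23.99, 35.6 and 32.9 FPKM (log2 -1.93, SE 0.38, edgeR adjusted p = 0.0313). In all of these every day 2 library lay below every CK library. The MIEL1 call held in 4 of 6 fits and the other 3 calls in none. A gag-pol gene of a retroelement (PchiChr1G010090) was the 1 of the 12 most lowered genes within the same limit whose call held in all 6 fits, at 4.19 to 6.11 against 0.826 to 1.31 FPKM (log2 -2.06, SE 0.24, edgeR adjusted p = 0.00912).

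Markers of other tissues were looked at beside these results. The called share was 24.5% for reproductive or seed names, 25.0% for woody tissue and 8.33% for epidermis, against 4.95% of all tested genes. Of 53 genes named for reproductive or seed tissue 12 rose and 1 fell, and 11 of the 12 carried the name of a single pollen major allergen, 9 of them in a row on chromosome 1 (block 1000000001, 208325941 to 209726396) with log2 fold changes of 4.68 to 5.23. The copy PchiChr1G029300 was at 1.02, 1.67 and 0.179 FPKM in CK and at 32.4, 18.9 and 18.2 FPKM at day 2 (log2 4.68, edgeR adjusted p = 0.0151, held in 5 of 6 fits). Of 8 woody tissue markers 2 rose, both COBRA genes, and none was called lower. The list was mixed, with 5 positive estimates and a range of log2 fold changes from -10.18 to 4.30. In FPKM 3 of the 8 were separated upward and 3 downward, as were 18.1% and 23.7% of all tested genes. Mean log2 CPM of that list ran from 2.22 to 2.66 in CK and from 2.28 to 3.29 at day 2. None of 5 guard cell markers passed (2.85 to 3.13 at day 2 against 3.19 to 3.49 in CK), and 1 of 12 epidermis markers fell. A list meant for plastid-encoded proteins, whose transcripts polyA selection should leave out, gave no call among 480 tested genes, with a median log2 of 0.84. It was matched on names and also took in a chloroplast isopentenyl diphosphate isomerase (PchiChr7G210910), so it is no clean measure of plastid transcripts. The summed level of this list was 5378 to 6145 FPKM in CK and 3061, 1027 and 3196 FPKM in day 2 libraries 1, 2 and 3, so the sum was lower while most estimates were positive. Most of its genes were low, with a mean log2 CPM of -1.87 to -0.673 in CK and -0.671 to -0.0363 at day 2. Only 92 of the 480 entered limma on log2(FPKM + 1), with a median of 0.24. The part of any of these in the results above was not tested.

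Some neighbouring genes moved together. The table held 29 runs of at least 3 adjacent called genes, 28 of them higher. Beside the allergen copies they included 3 CYP725A21 genes and 3 CYP725A9 genes on chromosome 11, 4 phytosulfokine precursors on chromosome 11 (log2 4.20 to 7.15) and 4 class III peroxidases on chromosome 5 (log2 3.54 to 8.55). Phytosulfokine is a small peptide hormone that in Arabidopsis acts in growth and wound responses. PchiChr11G301720 of that run was at 0, 0.0529 and 0 FPKM in CK and at 5.19, 1.80 and 1.496 FPKM at day 2 (log2 7.15, SE 1.15, edgeR adjusted p = 0.0174, held in 4 of 6 fits). Adjacent copies may have shared reads. By chromosome the share of tested genes called higher ran from 2.78% on chromosome 6 to 5.0% on chromosome 9, and it was 0.607% on unplaced scaffolds.

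Pathway labels deposited by the authors gave a second grouping. Over all tested genes 4.09% were called higher and 0.858% lower. Of 84 genes labelled alpha-linolenic acid metabolism, the route to jasmonates, 10 rose (11.9%). Of 363 in plant hormone signal transduction 41 rose (11.3%) and 9 fell, and of 379 in plant-pathogen interaction 41 rose (10.8%) and 4 fell. Diterpenoid biosynthesis had 7 of 87 higher and 70 positive estimates, with a median log2 of 2.05. All 14 antenna protein genes of photosynthesis had negative estimates, with a median log2 of -2.11, and none was called. The larger label photosynthesis went the other way, with 319 of 365 estimates positive, a median log2 of 0.84 and 1 gene called, as higher. The list of plastid-encoded names above, whose genes were mostly low, had a median of 0.84 too. How many members the label and that list share was not tested, so these estimates are no measure of photosynthesis transcripts as a whole. Carbon fixation had 60 of 102 estimates positive, a median log2 of 0.66 and 1 gene higher. These groupings overlap with the gene lists and are no separate evidence.

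Between day 2 and day 1 of MeJA no gene was called. The lowest edgeR adjusted p was 0.247, with 484 genes higher and 465 lower at an unadjusted p under 0.05, and DESeq2 called 34 higher and 19 lower. For the taxane list the median log2 difference of day 2 minus day 1 was 2.55, with 0 of its genes called. Mean log2 CPM of that list was 4.333, -1.401 and 6.001 in day 1 libraries 1, 2 and 3. In day 2 libraries 1, 2 and 3 it was 4.576, 8.991 and 6.744. Day 1 library 2 lay within the range of the CK libraries, and day 2 library 2 lay highest. Libraries 1 and 3 differed little between the days, so the median is no clear sign of a further rise. A p above the threshold does not show that the days were alike, given the spread between libraries. In simulated data drawn from these libraries edgeR called 28 and 29 of 50 genes changed by 3 on the log2 scale at day 2 against CK, lower and higher, and 11 and 14 of 50 changed by 2.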

How the data were processed

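Leaf polyA RNA of 9 libraries in 3 groups was sequenced, and fastp, HISAT2 and HTSeq are named in the submitters' processing notes, without versions. Per gene the authors deposited estimated counts and FPKM, with descriptions, pathway labels and positions as a block and a place within it. The deposited counts hold whole numbers that look rounded up, since 100% of 322 small counts exceeded what FPKM implied by 0 to 1 (tolerance 0.05). The test on counts was edgeR's quasi-likelihood F test (version 4.0.16, R 4.3.3, TMM, filterByExpr minimum count 10), in 1 fit of all 9 libraries with no covariate, Benjamini-Hochberg adjustment over 22384 genes and a threshold of 0.05. Alternatives were DESeq2 1.42.0, its size factors in edgeR, no filter, a group mean of 5 FPKM or more, a 2-fold threshold, the 6 libraries alone, each library left out, a replicate block, and limma 3.58.1 on log2 values of the deposited FPKM plus 1 or 0.1. The members and the 40 gene lists, matched on the descriptions, were chosen with earlier results of these data known, and 5 lists were added after values were seen. Genes were named by rule: the 12 largest called changes each way (group mean of 5 FPKM or more), the 2 lowest adjusted p per list (4 for CYP725A), or the lowest p where none was called. Other genes were picked once values were known. The scripts were tested on simulated data.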

Additional observations from a re-analysis of the deposited data

How the results depend on the processing

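Day 2 against CK, the 915 higher and 192 lower genes became 2572 and 1360 by DESeq2 and 1402 and 543 with the 6 libraries alone. A test against a 2-fold change gave 254 and 13, and limma gave 377 lower genes with a pseudocount of 0.1 and 443 with 1. The share of called genes that were higher was 82.7% in the main analysis, 65.4% by DESeq2, 68.9% and 74.6% by limma with 1 and 0.1, 72.1% for the 6 libraries alone, 68.5% without day 1 library 2 and 95.1% against a 2-fold change. Leaving out 1 library gave 42 to 1981 higher and 6 to 912 lower genes, the lowest without CK library 1 and the highest without day 1 library 2. Fits without day 1 libraries 1 and 3 were added after seeing the data. Of 118 named calls, 107 ended without CK library 1, 71 without CK library 2 and 78 without CK library 3, and 37, 62 and 55 without day 2 libraries 1, 2 and 3. Several of the 107, MYC2a among them, were at an edgeR adjusted p of 0.0504 there, just above the threshold. The cause was not tested. The log2 fold change of the sesquiterpene synthase PchiChr5G131060 turned to -0.61 without day 2 library 1 and was 4.36 without CK library 2. Day 2 against day 1, DESeq2 called 53 genes. Same-numbered CK and day 2 libraries shared little of their deviation from the group means (correlations 0.14, 0.129 and -0.0036). That check did not cover the day 1 libraries. With a replicate block 730 genes were higher and 135 lower, and 32 of the 118 named calls ended. Across genes, day 1 and day 2 libraries 1 correlated at 0.959 and libraries 3 at 0.960, above 0.901 to 0.918 within day 2, while libraries 2 did so at 0.795, so not every library was closest to its own number. Whether numbers link libraries of the 2 treated groups was not tested, and the main fit held no term for such a link. Depth was 48893949 to 58703021 counts per library, and in simulated data about the same design called 28 and 29 of 50 genes changed by 3 on the log2 scale.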

Other observations

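Gene lists not described above are read here against the 4.95% of all tested genes that were called, and the pentatricopeptide, U-box, calcium, P450 and glycosyltransferase lists were drawn up after values were seen. Of 469 pentatricopeptide repeat genes tested, whose products process organelle RNA, 5 fell and none rose (1.07% called). Estimates were positive for 64 of them, the median log2 fold change was -0.53, and 279 had day 2 FPKM values below all CK values, as 23.7% of all tested genes did. Mean log2 CPM over the list was 2.53 to 2.69 in CK and 2.02 to 2.14 at day 2, so the groups did not overlap and library 2 did not stand apart. PchiChr12G336010 of that list was at 2.63 to 2.64 FPKM in CK and at 1.04 to 1.26 FPKM at day 2 (log2 -1.07, SE 0.21, edgeR adjusted p = 0.0308), and without any one of the 6 libraries none of the 5 calls held.

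U-box ubiquitin ligases had 9 of 43 tested genes higher and 1 lower (23.3% called). U-box protein 9 (PchiChr12G335150) was at 5.51, 4.28 and 2.05 FPKM in CK and at 60.2, 48.7 and 51.4 FPKM at day 2 (log2 3.88, SE 0.43, edgeR adjusted p = 0.00857, held in all 6 fits with a library left out). Of 59 calcium signalling genes 11 rose and 1 fell (20.3%), among them a calcium-binding protein (PchiChr6G187300, log2 2.22, SE 0.33, edgeR adjusted p = 0.0140, held in 3 of 6 fits). Of 279 P450 genes outside CYP725A 14 rose and 3 fell (6.09%), and of 52 UDP-glycosyltransferases 4 rose and none fell (7.69%), shares near that of all genes. Without CK library 1, 1 of the U-box calls and none of the calcium, P450 or glycosyltransferase calls held. Of the remaining lists, 1 of 14 Calvin cycle and photorespiration genes rose (median log2 -1.24), 1 of 37 cutin and wax genes rose (2.7%), 2 of 107 cell cycle and histone genes rose (1.87%), and 3 of 47 sugar and nitrogen transport genes rose and 1 fell. In the auxin and growth hormone list 1 of 58 rose and 2 fell, and 1 of 33 genes with names of other organisms or mobile elements rose.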
